A study of Mus musculus with 4 samples.

Results

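Epithelial cells are held together by tight junctions, adherens junctions, desmosomes and gap junctions, and the genes that encode these complexes were compared between 2D and 3D cultures of AML12, an immortalised line of mouse hepatocytes. Junction genes were taken as the protein-coding genes whose symbols name a claudin, a classical or related cadherin (Cdh), a nectin, a junctional adhesion molecule (F11r, Jam2 and Jam3), occludin or another MARVEL protein (Ocln, Marveld1 to Marveld3), a ZO protein (Tjp), cingulin or paracingulin (Cgn, Cgnl1), a desmosomal cadherin (Dsg, Dsc), desmoplakin (Dsp), plakoglobin (Jup), a plakophilin (Pkp) or a connexin (Gj). The rule found 91 of the 31828 genes in the expression table, of which 18623 are protein-coding. Sorted by symbol alone, 32 of the 91 genes were assigned to tight junctions, 24 to adherens junctions, 15 to desmosomes and 20 to gap junctions. All Cdh genes were thus counted with adherens junctions and all Marveld genes with tight junctions. The sorting does not show that each product is part of that junction.

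The 2D-cultured cells were plated in dishes and the 3D-cultured cells were embedded in Matrigel, a basement membrane extract, and RNA-seq was performed on 2 libraries of each. All 4 libraries came from cells grown in serum with insulin, transferrin, selenite, dexamethasone and antibiotics, and arrested at the G1/S boundary with 1 mM hydroxyurea, which blocks DNA replication. Hydroxyurea was added at 50% confluence and kept for 24 h in 2D, and was added after 24 h of culture and kept for 36 h in 3D. The treatment time, the density of the cells and the culture therefore changed together and cannot be told apart. The line is immortalised and grew without other liver cells, and the labels do not say whether the libraries of a culture came from separate cultures, so that the p-values measure the spread between these libraries only, which may be technical.

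As background, tight junctions seal the space between neighbouring cells, with claudins as their strands and the ZO proteins as scaffolds that tie them to actin. Adherens junctions and desmosomes hold cells together through cadherins, which bind catenins and actin in the former and plakoglobin, plakophilins, desmoplakin and keratin filaments in the latter, while connexins form channels that pass ions and small molecules between cells. In the liver tight junctions border the bile canaliculi, E-cadherin (Cdh1) and N-cadherin (Cdh2) are both present on hepatocytes, and Gjb1 encodes the main connexin of hepatocytes.

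Levels were given as TPM, which are corrected for transcript length, so that levels of different genes may be set side by side, but which keep no record of sequencing depth. Across the 14116 genes with a mean of at least 1 TPM, log2(TPM + 1) correlated with a Pearson r of 0.991 between the 2D libraries, 0.992 between the 3D libraries and 0.951 to 0.952 between cultures. Hepatocyte markers were only partly present. Of the 7 tested 5 were higher in 3D (71.4%, against 23.4% of all tested genes) and 2 were lower (28.6%, against 27.1%). Alb, which encodes albumin, was at 0.819 and 1.20 TPM in 2D and 12.7 and 10.0 TPM in 3D, and Ttr, which encodes transthyretin, was at 3.98 and 3.11 TPM in 2D and 88.1 and 80.9 TPM in 3D. The apolipoprotein genes Apob and Apoa1 were higher in 3D by 1.33 and 1.03 log2 units. The keratin genes Krt8 and Krt18 were the lower ones, between 1795 and 6286 TPM, with a ratio of the mean TPM in 3D to that in 2D of 0.566 and 0.531. Serpina1a, Fgb, Asgr1, Tat and Cps1 did not exceed 0.261 TPM in any library. Of the biliary markers Krt19, Krt7 and Spp1 were at 138 TPM or more in every library, while Epcam was listed at 0 in all but 3D replicate 1, where it was 0.0298 TPM. Of the 6 biliary markers tested 2 were higher (33.3%) and 2 were lower (33.3%) in 3D. Spp1 rose from 166 and 138 TPM in 2D to 764 and 786 TPM in 3D, whereas Krt19 and Krt7 fell by 0.49 and 0.65 log2 units. Summed levels of 10 endothelial markers lay between 8.20 and 10.3 TPM, but the 2 that were tested moved in opposite directions. Vwf was at 1.09 and 1.08 TPM in 2D and at 5.18 and 5.05 TPM in 3D, whereas Esam was at 6.03 and 7.12 TPM in 2D and at 2.56 and 2.83 TPM in 3D. Pecam1, Cdh5 and Kdr did not exceed 0.657 TPM, and Stab2, at 0.660 TPM or less, was higher in both 3D libraries. Summed levels of 10 leukocyte markers lay between 25.0 and 30.4 TPM, most of it Cd68, with Ptprc at 0.296 TPM or less. The 9 stellate cell and fibroblast markers summed to 35.5 and 38.7 TPM in 2D and to 20.4 and 19.4 TPM in 3D, most of it Des. The part of these other cell types in the results was not tested. In bulk RNA, fewer cells of a type and less RNA per cell cannot be told apart.

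Of the 91 junction genes 36 reached a mean of 1 TPM and were tested with limma, and 23 of them (63.9%) had an adjusted p-value under 0.05, where 50.5% of all tested genes did. In the 3D-cultured cells 7 junction genes were higher (19.4%, against 23.4% of all tested genes) and 16 were lower (44.4%, against 27.1%), and 13 were not called. The median log2 fold change of 3D over 2D was -0.14 for the 36 junction genes and -0.04 for all tested genes. Past a log2 fold change of 1 in size, Gjb1, Cdh1 and Dsg3 were higher, where 4.37% of all tested genes were, and Pkp1, Cldn12 and Cdh2 were lower, where 3.83% were. The libraries of the cultures did not overlap for 29 of the 36 genes, against 77.5% of all tested genes. Gjb1 and Dsg3 were under 1 TPM in 2D and passed the filter only through the 3D libraries, and Tjp3 passed it only through the 2D libraries, so these counts describe the tested genes and not all 91.

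**Figure D1:**
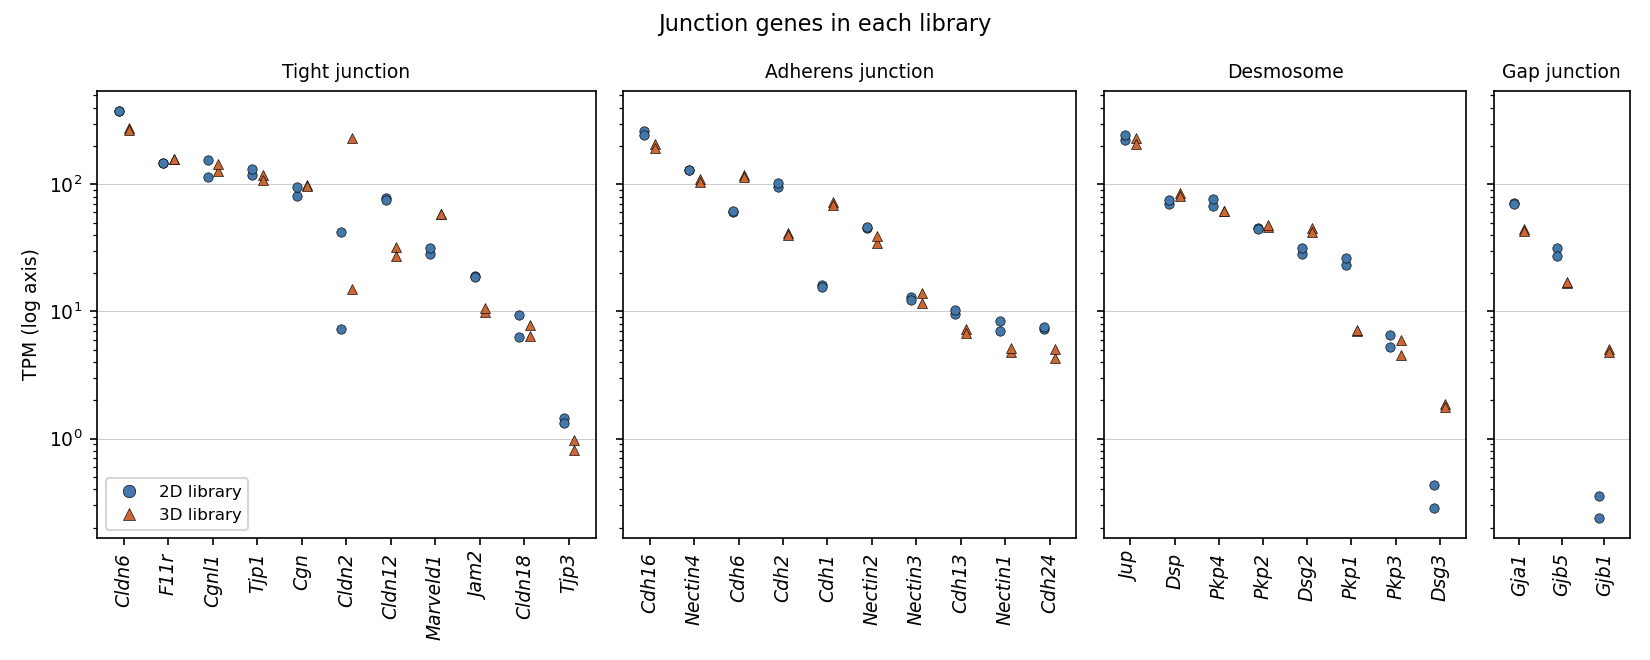
TPM on a log axis of 32 of the 36 tested junction genes in each library, with circles for the 2 libraries of 2D and triangles for the 2 libraries of 3D, ordered by mean level within each junction type. Libraries of a culture lie close together for most genes, with Cldn2 far apart within both cultures, and Gjb1 shows the widest gap between cultures.

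The direction of the changes varied within every junction type. Adherens junctions had 2 higher (20%) and 7 lower (70%) genes of 10 tested. Gap junctions had 1 higher (16.7%) and 4 lower (66.7%) genes of 6. Of the 12 tight junction genes tested 2 were higher (16.7%) and 3 were lower (25%). Of the 8 desmosome genes 2 were higher (25%) and 2 were lower (25%). Among all tested genes 23.4% were higher and 27.1% were lower, near the shares of tight junctions and desmosomes. The median log2 fold change was -0.04 for tight junctions, -0.32 for adherens junctions, -0.01 for desmosomes and -0.72 for gap junctions. The count of higher tight junction genes was 1 without 2D replicate 1, 3D replicate 1 or 3D replicate 2. The count of lower adherens junction genes also rested on particular libraries. It was 3 without 2D replicate 2, and 4 without either 3D replicate 1 or 3D replicate 2. Without 3D replicate 1, 12 junction genes were lower in all, as without 3D replicate 2, and without 2D replicate 2 there were 11.

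**Figure D2:**
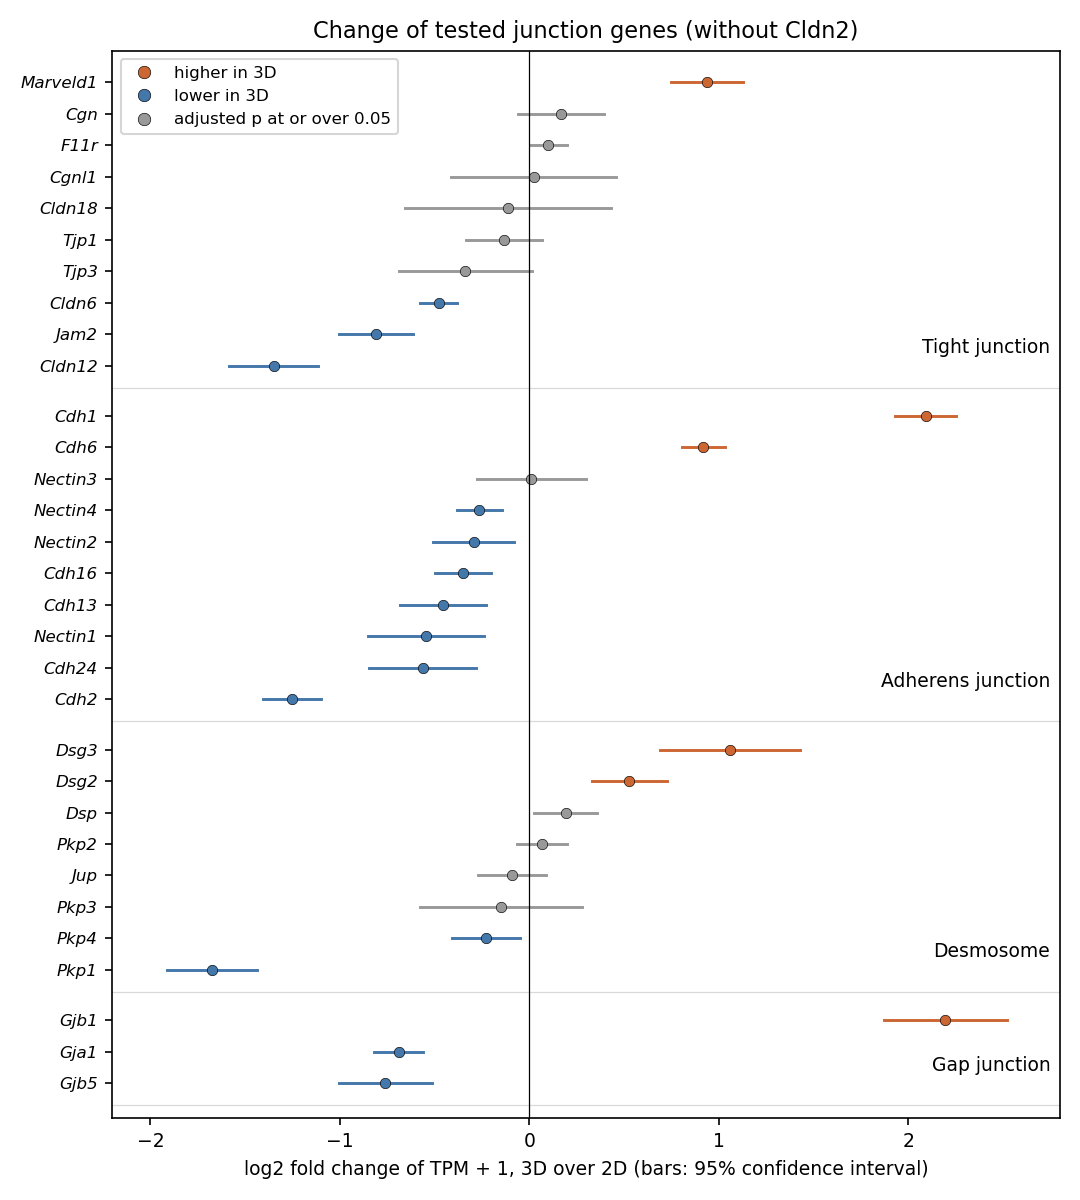
Log2 fold change of TPM + 1, 3D over 2D, on the x axis for the junction genes of the plot of levels except Cldn2, grouped by junction type, with bars for the 95% confidence interval from limma. Orange points were higher in 3D, blue points were lower and grey points had an adjusted p-value of 0.05 or more. Gjb1 and Cdh1 lie farthest to the right, at 2.20 and 2.09, and Pkp1 lies farthest to the left, at -1.67.

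Start regions of RefSeq were listed for 52 of the 91 genes and for 21 of the 36 tested. The 250 bases before the start are shown for the called genes that changed by at least 0.75 on the log2 scale and whose listed start matched an annotated transcript with no exon in the window, so that the letters before genes that rose and fell can be set side by side. All are from GRCm38.p6 and read 5′ to 3′ on the strand of the gene. The Gjb1 window (chrX:101383482-101383731, plus strand) lies inside the annotated gene, before 1 of its 4 listed starts. The Cdh6 window (chr15:13173676-13173925, minus strand) and the Marveld1 window (chr19:42147139-42147388, plus strand) lie just before their genes, as does that of Cldn12 (chr5:5514977-5515226, minus strand), which is before 1 of its 3 listed starts. Capitals mark matches on either strand to the E-box CACCTG, which Snail and ZEB factors can bind, to the GC box GGGCGG, to the TATA box TATAAA, and to the CCAAT box.
Gjb1: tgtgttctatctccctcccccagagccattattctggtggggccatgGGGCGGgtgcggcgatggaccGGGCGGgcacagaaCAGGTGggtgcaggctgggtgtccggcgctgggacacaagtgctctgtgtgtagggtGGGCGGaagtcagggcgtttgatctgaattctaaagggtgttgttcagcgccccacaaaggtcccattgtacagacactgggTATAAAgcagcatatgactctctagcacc
Cdh6: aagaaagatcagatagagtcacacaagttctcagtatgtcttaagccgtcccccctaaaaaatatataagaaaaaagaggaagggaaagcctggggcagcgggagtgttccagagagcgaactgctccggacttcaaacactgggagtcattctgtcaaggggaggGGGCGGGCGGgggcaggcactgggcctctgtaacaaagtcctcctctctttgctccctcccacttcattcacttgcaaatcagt
Marveld1: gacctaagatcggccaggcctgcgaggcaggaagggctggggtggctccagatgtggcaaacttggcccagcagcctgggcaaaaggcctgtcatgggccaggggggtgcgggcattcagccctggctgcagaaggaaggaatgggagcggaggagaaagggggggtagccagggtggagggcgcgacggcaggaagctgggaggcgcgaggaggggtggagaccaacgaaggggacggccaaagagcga
Cldn12: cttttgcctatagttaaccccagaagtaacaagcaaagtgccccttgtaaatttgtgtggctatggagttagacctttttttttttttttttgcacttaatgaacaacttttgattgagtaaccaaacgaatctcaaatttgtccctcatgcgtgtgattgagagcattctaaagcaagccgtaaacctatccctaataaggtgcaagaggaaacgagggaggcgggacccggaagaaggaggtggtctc

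The Gjb1 window held 1 E-box, 3 GC boxes and 1 TATA box, and the Cdh6 window held 2 GC boxes that overlap each other. The Marveld1 and Cldn12 windows shown held none of the 4 motifs, which says only that these letters were not found there. The windows before the other 2 starts of Cldn12, which overlap annotated exons, each held 1 GC box and 1 CCAAT box, and 2 of the other windows of Gjb1 each held 1 CCAAT box. Over 29 listed starts of tested junction genes, the GC box was found in 15 (51.7%) and in 32.7% of the 32851 start regions of all genes. The E-box was found in 7 of the 29 (24.1%) and in 17.2% of all, the TATA box in 3 (10.3%) and in 12.4%, and the CCAAT box in 10 (34.5%) and in 33.8%. The 2 sets are unlike, since the junction starts are of genes that passed the filter on level and those of all genes were taken whatever their level. Several starts belong to the same gene, and a match of letters does not show that a factor binds.

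Cadherins, all counted here with adherens junctions, changed in opposite directions, with E-cadherin and N-cadherin at the extremes. Cdh1, which encodes E-cadherin and lies at chr8:106603351-106670246 on the plus strand of GRCm38, was at 16.0 and 15.6 TPM in 2D and at 72.9 and 68.4 TPM in 3D. The level rose from 15.8 ± 0.316 to 70.7 ± 3.21 TPM (mean ± SD, n = 2 libraries per culture), which is 2.09 ± 0.06 log2 units (SE), with an adjusted p-value of 0.000215 in limma. Cdh2, which encodes N-cadherin, was at 94.6 and 102 TPM in 2D and at 41.4 and 39.7 TPM in 3D. It fell by 1.25 ± 0.06 log2 units (adjusted p-value 0.000407 in limma), and the cultures did not overlap for either gene. The ratio of Cdh1 to Cdh2 levels was 0.169 and 0.153 in 2D but 1.76 and 1.72 in 3D, so that the order of the pair turned round.

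Cdh6, which encodes K-cadherin, a type II cadherin of kidney and other epithelia, was the other cadherin that rose. Its level was 60.8 and 61.1 TPM in 2D and 118 and 115 TPM in 3D, a log2 fold change of 0.92 ± 0.04 (adjusted p-value 0.000407 in limma). Cdh16, which encodes kidney-specific cadherin, had the highest level of the family in both cultures. It was at 263 and 246 TPM in 2D and at 206 and 193 TPM in 3D, and fell by 0.35 ± 0.06 log2 units (adjusted p-value 0.00766 in limma). Cdh13, which encodes T-cadherin, a cadherin held to the membrane by a lipid anchor, was at 9.62 and 10.3 TPM in 2D and at 7.21 and 6.77 TPM in 3D (log2 fold change -0.46, adjusted p-value 0.0126 in limma). Cdh24, a further type II cadherin, was at 7.24 and 7.49 TPM in 2D and at 4.30 and 5.05 TPM in 3D (log2 fold change -0.56, adjusted p-value 0.0126 in limma). The calls of the last pair were less firm than those of the others. Without 2D replicate 2 their adjusted p-values in limma were 0.0503 for Cdh13 and 0.0520 for Cdh24, without 3D replicate 2 it was 0.0681 for Cdh13, and without 3D replicate 1 it was 0.0580 for Cdh24.

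The summed level of all 20 cadherins was 453 and 444 TPM in 2D and 453 and 432 TPM in 3D. Within that sum the mean share of Cdh1 was 3.52% in 2D and 16.0% in 3D, and that of Cdh6 was 13.6% and 26.3%. Cdh2 went the other way, with 21.9% in 2D and 9.17% in 3D, as did Cdh16, with 56.7% and 45.1%. The remaining 14 cadherins did not exceed 1.59 TPM in any library. The highest of them were Cdh17, the liver-intestine cadherin, with a mean of 0.404 ± 0.0638 TPM in 2D and 1.45 ± 0.207 TPM in 3D, and Cdh4, which encodes R-cadherin, at 0.223 and 0.267 TPM in 2D and 1.02 and 1.10 TPM in 3D. Both were under the filter, and tested with no filter they had limma adjusted p-values of 0.0211 and 0.0180. Cdh3, which encodes P-cadherin and ends 46053 bases before Cdh1 on chromosome 8, was at 0.544 and 0.790 TPM in 2D and at 0.316 and 0.304 TPM in 3D, and was not tested.

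**Figure D3:**
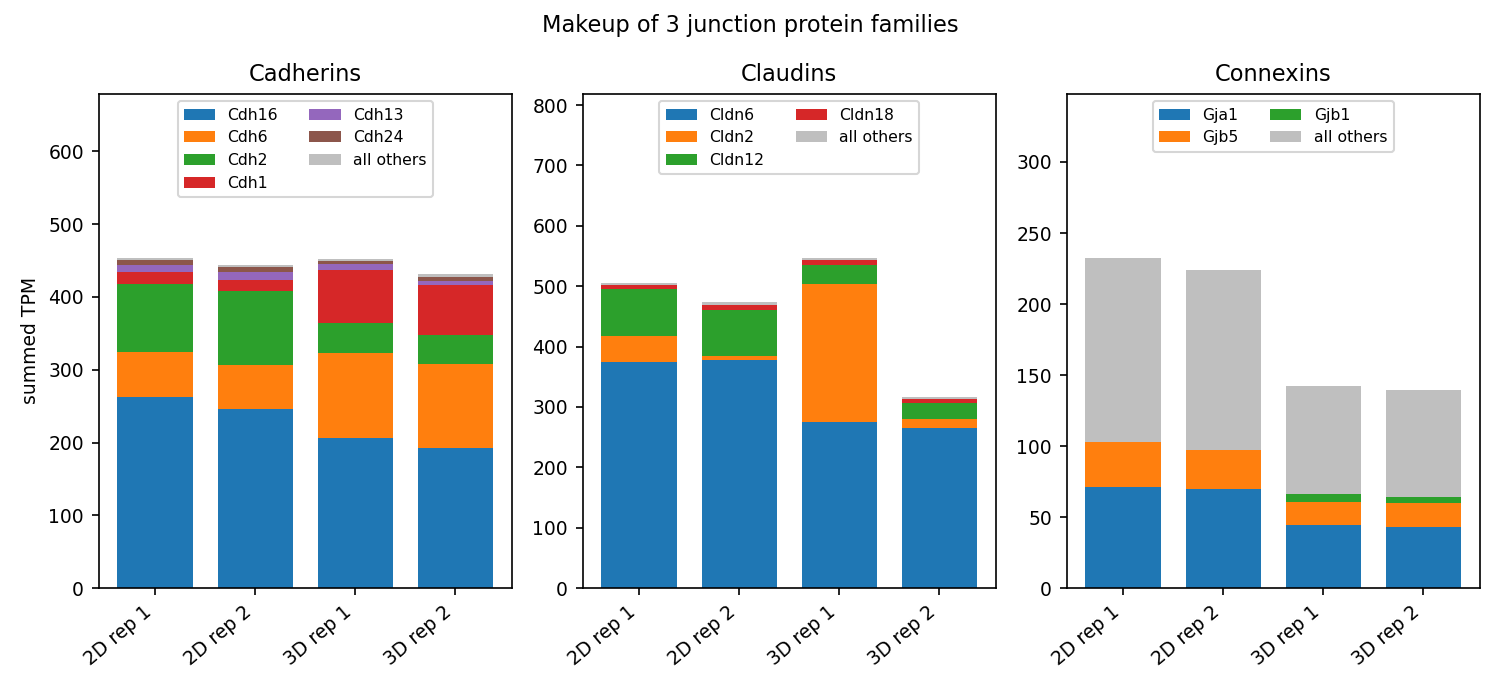
Summed TPM of the cadherins, claudins and connexins in each library, as bars that start at 0 and are divided by gene, with the genes not drawn apart in grey. The cadherin bars are nearly level while Cdh1 and Cdh6 take a larger part in 3D. The claudin bar is highest in 3D replicate 1, where Cldn2 is largest, and lowest in 3D replicate 2. Cldn6, Cldn12 and the connexin bars are lower in both 3D libraries.

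Nectins, immunoglobulin-like adhesion molecules that bind afadin, were lower in 3D for 3 of the 4 genes. Nectin4 had the highest level, 128 and 129 TPM in 2D and 109.7 and 104 TPM in 3D, and fell by 0.26 ± 0.05 log2 units (adjusted p-value 0.00965 in limma). Nectin2 was at 45.0 and 46.0 TPM in 2D and at 34.5 and 39.5 TPM in 3D (log2 fold change -0.29, adjusted p-value 0.0363 in limma), and Nectin1 was at 7.71 ± 0.995 TPM in 2D and at 4.94 ± 0.236 TPM in 3D with no overlap (log2 fold change -0.55, adjusted p-value 0.0178 in limma). Nectin3, a partner of the other nectins in binding between cells, overlapped between cultures, with 12.9 and 12.4 TPM in 2D and 14.0 and 11.6 TPM in 3D and a log2 fold change of 0.01 (95% interval -0.28 to 0.30). Each of the 3 calls depended on the libraries. Without 3D replicate 2 the limma adjusted p-value was 0.0622 for Nectin4 and 0.0598 for Nectin1, and Nectin1 was at 0.0568 without 2D replicate 2 and at 0.0818 without 3D replicate 1. Nectin2 was at 0.0950 without 2D replicate 1, 0.118 without 2D replicate 2 and 0.119 without 3D replicate 1.

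Claudins, the strand proteins of tight junctions, were carried by few genes. Of 20 claudins 4 were tested and the other 16 did not exceed 1.44 TPM. Cldn3 was not among the 20 and was not assessed. Cldn6, a claudin of embryonic epithelia, had the highest level of all junction genes, with 374 and 377 TPM in 2D and 274 and 265 TPM in 3D. It fell by 0.48 ± 0.04 log2 units (adjusted p-value 0.00110 in limma). Cldn12, a claudin linked to the passage of calcium ions (chr5:5489537-5514958, minus strand), fell further. It was at 78.4 and 75.4 TPM in 2D and at 32.0 and 27.3 TPM in 3D, a log2 fold change of -1.35 ± 0.09 (adjusted p-value 0.000738 in limma).

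Cldn2, which forms a pore for cations and water, differed more between replicates than between cultures. Its level was 42.5 and 7.25 TPM in 2D but 229 and 15.0 TPM in 3D, so that replicate 1 exceeded replicate 2 in both cultures, by 2.40 on the log2 scale in 2D and 3.85 in 3D. The log2 fold change of 1.68 had a 95% interval of -2.24 to 5.60 (adjusted p-value 0.393 in limma), and without 3D replicate 1 it was -0.24. Only 10 of the 14116 tested genes differed by more than 1 on the log2 scale between replicates in the same order in both cultures, and Cldn2 was the only junction gene among them. Of the genes before it on chromosome X and on its strand, Rnf128 was at 101 and 52.5 TPM in 2D and 179 and 99.2 TPM in 3D, while Tbc1d8b, which lies between the pair, was between 16.0 and 17.1 TPM in every library. The sum of the claudins was 505 and 473 TPM in 2D and 546 and 317 TPM in 3D. Without Cldn2 it was 463 and 466 TPM in 2D and 317 and 302 TPM in 3D, so that the libraries of the cultures no longer overlapped. Cldn18, a claudin of stomach and lung, overlapped between cultures with 6.25 and 9.40 TPM in 2D and 7.77 and 6.35 TPM in 3D (log2 fold change -0.11, 95% interval -0.66 to 0.43).

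Several tight junction genes known from liver and other epithelia were close to 0 in all libraries. Cldn1, a barrier claudin of hepatocytes and bile ducts, did not exceed 0.0304 TPM, and Ocln, which encodes occludin, did not exceed 0.137 TPM. Cldn4, a claudin that tightens the barrier to sodium ions, was at 1.44 and 1.01 TPM in 2D and at 0.464 and 0.423 TPM in 3D, under the filter, and had a limma adjusted p-value of 0.0555 when tested with no filter. Marveld2, which encodes tricellulin, the protein of corners where several cells meet, was between 0.398 and 0.532 TPM. Marveld3, a relative of it, was between 0.439 and 0.983 TPM. Marveld1 was the MARVEL protein gene that reached a mean of 1 TPM. It was at 28.4 and 31.7 TPM in 2D and at 58.8 and 58.0 TPM in 3D, and rose by 0.94 ± 0.07 log2 units (adjusted p-value 0.00102 in limma).

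Junctional adhesion molecules differed from each other. F11r, which encodes JAM-A, a receptor that recruits polarity proteins, was at 146 and 147 TPM in 2D and at 157 and 158 TPM in 3D. The cultures did not overlap, and the log2 fold change of 0.10 (95% interval 0.00 to 0.20) had a limma adjusted p-value of 0.0829, which was 0.0311 after quantile normalization and 0.0445 after rescaling without the highest genes. Jam2, an adhesion molecule known mainly from endothelium, was at 19.0 and 18.5 TPM in 2D and at 9.91 and 10.6 TPM in 3D, and fell by 0.81 ± 0.07 log2 units (adjusted p-value 0.00164 in limma). Jam3 did not exceed 0.469 TPM.

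Scaffolds tie the strands of tight junctions to actin. Tjp1, which encodes the first ZO protein to be described, was at 118 and 131 TPM in 2D and at 119 and 109 TPM in 3D, a log2 fold change of -0.13 (95% interval -0.33 to 0.07). Tjp3 was at 1.44 and 1.33 TPM in 2D and at 0.968 and 0.810 TPM in 3D (log2 fold change -0.34, 95% interval -0.69 to 0.02), and overlaps Apba3, which lies on the opposite strand and is expressed, though the kit marks strand. Cingulin and paracingulin link ZO proteins to actin and microtubules. Cgn was at 80.4 and 94.5 TPM in 2D and at 99.3 and 96.9 TPM in 3D (log2 fold change 0.17, 95% interval -0.06 to 0.40), with a limma adjusted p-value of 0.167 that was 0.0217 without 2D replicate 2. Cgnl1 overlapped between cultures, with 114 and 156 TPM in 2D and 126 and 145 TPM in 3D (log2 fold change 0.02, 95% interval -0.41 to 0.46).

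Desmosomes showed their largest change in a plakophilin. Pkp1, an armadillo protein of desmosomal plaques that is most abundant in stratified epithelia (chr1:135871395-135919207, minus strand), was at 23.2 and 26.4 TPM in 2D and at 6.99 and 7.19 TPM in 3D. It fell by 1.67 ± 0.09 log2 units (adjusted p-value 0.000506 in limma), the largest decrease among the tested junction genes. Pkp2, the plakophilin found most widely in simple epithelia and heart, was at 45.3 and 44.7 TPM in 2D and at 46.5 and 47.8 TPM in 3D (log2 fold change 0.07, 95% interval -0.06 to 0.20). Pkp3 overlapped between cultures, with 6.57 and 5.30 TPM in 2D and 5.96 and 4.57 TPM in 3D (log2 fold change -0.15, 95% interval -0.58 to 0.28). Pkp4, which is found at both adherens junctions and desmosomes, was at 68.0 and 76.1 TPM in 2D and at 61.4 and 61.1 TPM in 3D (log2 fold change -0.23, adjusted p-value 0.0466 in limma). This was the highest adjusted p-value of the called junction genes, and the call was lost without 2D replicate 2, 3D replicate 1 or 3D replicate 2 (adjusted p-value 0.1002, 0.145 and 0.153 in limma) and with a replicate block (0.0631). The mean share of Pkp1 in the summed plakophilin level was 16.8% in 2D and 5.87% in 3D.

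The desmosomal cadherins and the plaque proteins did not follow Pkp1. Dsg2, the desmoglein of simple epithelia, was at 28.5 and 31.2 TPM in 2D and at 45.2 and 41.8 TPM in 3D, and rose by 0.53 ± 0.08 log2 units (adjusted p-value 0.00552 in limma). Dsg3, a desmoglein of stratified epithelia that lies next to Dsg2 in the genome, was at 0.283 and 0.431 TPM in 2D and at 1.88 and 1.76 TPM in 3D, a log2 fold change of 1.06 ± 0.14 (adjusted p-value 0.00444 in limma), and was low in both cultures. The other 4 desmogleins of that cluster did not exceed 0.198 TPM. The desmocollins Dsc1, Dsc2 and Dsc3, which pair with desmogleins in desmosomes, did not exceed 0.129 TPM. Dsp, which ties desmosomes to keratin, was at 69.4 and 75.8 TPM in 2D and at 84.8 and 81.1 TPM in 3D. The cultures did not overlap for Dsp, and its log2 fold change of 0.19 (95% interval 0.03 to 0.36) had a limma adjusted p-value of 0.0592, which was 0.0374 without 2D replicate 2. Jup, whose product plakoglobin serves both desmosomes and adherens junctions, was the most abundant desmosome gene. It overlapped between cultures, with 224 and 242 TPM in 2D and 229.9 and 208 TPM in 3D (log2 fold change -0.09, 95% interval -0.27 to 0.09).

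Of the 6 tested gap junction genes 4 fell and 1, the hepatocyte connexin, rose. The 20 connexins summed to 232 and 224 TPM in 2D and to 142 and 139 TPM in 3D. Gja1, which encodes the most widely expressed connexin, was at 71.1 and 69.98 TPM in 2D and at 44.1 and 42.6 TPM in 3D, and fell by 0.69 ± 0.05 (adjusted p-value 0.000864 in limma). Gjb5, a connexin of skin and placenta, was at 31.6 and 27.0 TPM in 2D and at 16.8 and 17.0 TPM in 3D, and fell by 0.76 ± 0.09 (adjusted p-value 0.00352 in limma). The libraries of the cultures did not overlap for either gene. The mean share of the summed connexin level was 31.0% in 2D and 30.8% in 3D for Gja1, and 12.9% and 12.0% for Gjb5. Gja4, a connexin of blood vessels, did not exceed 0.516 TPM.

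Gjb1, which encodes the main connexin of hepatocytes (chrX:101376378-101385629, plus strand), was at 0.238 and 0.354 TPM in 2D and at 5.05 and 4.82 TPM in 3D. The log2 fold change was 2.20 ± 0.12 with a limma adjusted p-value of 0.000543, the largest increase among the tested junction genes. Since the 2D level was under 1 TPM, the size depended on the pseudocount, with a log2 fold change of 3.68 for a pseudocount of 0.1 and 0.91 for a pseudocount of 5, and the ratio of the mean TPM was 16.7. Even so Gjb1 held 0.130% of the summed connexin level in 2D and 3.51% in 3D. Gjb2, the other connexin known from hepatocytes, did not exceed 0.101 TPM. The pannexins, channel proteins related in shape to connexins, were not tested, and the highest of them, Panx1, was between 0.902 and 1.03 TPM.

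Of the 91 junction genes 55 were under the filter. Among them 37 did not reach 0.2 TPM in any library, 14 had their highest value between 0.2 and 1 TPM, and 4 reached 1 TPM in at least 1 library, namely Cdh17, Cldn4, Cdh4 and Cldn15. At least 1 library listed 24 of the 55 at 0. A low or 0 value in TPM has no counting limit attached here, since the depth is unknown. Genes of endothelial junctions were among them, with Cdh5, which encodes VE-cadherin, at 0.454 TPM or less and Cldn5 at 0.129 TPM or less.

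Genes that work with the junctions were followed in lists set out by their roles. Of 13 tested catenins and adherens junction partners 3 were higher (23.1%) and 4 were lower (30.8%) in 3D, near the 23.4% and 27.1% of all tested genes, with a median log2 fold change of 0.04. Without 3D replicate 1 only 2 were lower. The catenin genes that tie cadherins to actin were abundant. Ctnna1, which encodes alpha-catenin, was at 415 and 445 TPM in 2D and at 364 and 359 TPM in 3D, and fell by 0.25 log2 units (adjusted p-value 0.0119 in limma). Ctnnb1, which encodes beta-catenin, spread widely within both cultures, with 226 and 339 TPM in 2D and 376 and 583 TPM in 3D (log2 fold change 0.76, 95% interval 0.01 to 1.51, limma adjusted p = 0.0840). Afdn, which encodes afadin, the partner of nectins, rose by 0.31 log2 units (adjusted p-value 0.0159 in limma), from 174 and 187 TPM in 2D to 215 and 234 TPM in 3D. Lima1, which encodes EPLIN, a link from the cadherin complex to actin, rose by 1.02 (adjusted p-value 0.000680 in limma), and Pdlim1, which encodes an actin-associated PDZ and LIM protein, fell by 1.04 (adjusted p-value 0.0125 in limma).

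Polarity genes, listed here for both the apical and the basolateral side, set the sides of an epithelial cell apart. In 3D 4 of 17 tested were higher (23.5%) and 2 were lower (11.8%), against 23.4% and 27.1% of all tested genes. The median log2 fold change of the list was 0.11. Without 2D replicate 1, 3D replicate 1 or 3D replicate 2 there was 1 lower polarity gene, and without 2D replicate 2 there were 6 higher ones. Crb3, which encodes the Crumbs protein of epithelial apical membranes, had the largest change among them. It was at 38.1 and 32.3 TPM in 2D and at 88.3 and 86.6 TPM in 3D, and rose by 1.29 log2 units (adjusted p-value 0.000822 in limma). Prkci, which encodes an atypical protein kinase C of the Par complex, fell by 0.69 (adjusted p-value 0.000984 in limma), from 157 and 163 TPM in 2D to 102 and 95.2 TPM in 3D. Of 14 tested scaffold and signalling genes 2 were higher (14.3%) and 5 were lower (35.7%), with a median of -0.09. Without 2D replicate 2 there were 3 lower genes, and without 2D replicate 1, 3D replicate 1 or 3D replicate 2 limma called 0 higher genes, where 2, 2 and 3 had an unadjusted p-value under 0.05. Amot, which encodes angiomotin, a junction protein of the Hippo pathway, fell by 1.12 (adjusted p-value 0.00121 in limma), and Esam, an adhesion molecule best known from endothelium, fell by 1.03 (adjusted p-value 0.00307 in limma). Ybx3, which encodes a transcription factor bound by ZO proteins, was the most abundant of the list and fell by 0.45 (adjusted p-value 0.00190 in limma).

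Transcription factors of epithelial and hepatocyte identity were mostly higher in 3D. Of 13 tested 8 were higher (61.5%, against 23.4% of all tested genes) and 3 were lower (23.1%, against 27.1%), with a median log2 fold change of 0.39. Only 1 was lower without 2D replicate 2, 3D replicate 1 or 3D replicate 2. Hnf4a, a master regulator of hepatocytes, was at 56.7 and 57.6 TPM in 2D and at 164 and 156 TPM in 3D, and rose by 1.47 log2 units (adjusted p-value 0.000241 in limma). Grhl2, a grainyhead factor known to regulate Cdh1, rose by 1.23 (adjusted p-value 0.000413 in limma), and Foxa2 rose by 1.07 (adjusted p-value 0.00281 in limma). Ehf, an ETS factor of epithelia, rose by 1.49 (adjusted p-value 0.00301 in limma) but was at 0.813 and 0.392 TPM in 2D and at 3.54 and 3.39 TPM in 3D, so that it passed the filter only through the 3D libraries. The lower genes were Elf3, Grhl1 and Klf5, factors of epithelia. They fell by 0.67, 0.37 and 0.20 log2 units (adjusted p-values 0.000935, 0.0291 and 0.0320 in limma).

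The factors of the epithelial-mesenchymal transition (EMT), several of which repress Cdh1, were listed as well. Of 5 tested 0 were higher and 1 (20%, against 27.1% of all tested genes), Snai3, was lower, with a median of -0.21. Snai3 fell by 0.53 log2 units (adjusted p-value 0.00514 in limma). Twist2 went the other way but was under the filter, at 0.208 and 0.399 TPM in 2D and 1.20 and 2.04 TPM in 3D. Zeb1 overlapped between cultures, with 16.5 and 26.0 TPM in 2D and 26.5 and 17.1 TPM in 3D (log2 fold change 0.04, 95% interval -0.73 to 0.81), and so did Snai2, with 16.1 and 18.9 TPM in 2D and 16.5 and 18.2 TPM in 3D (log2 fold change -0.01, 95% interval -0.29 to 0.26). Mesenchymal markers were lower for 4 of the 6 tested (66.7%, against 27.1% of all tested genes), with a median of -0.99. Vim, which encodes vimentin, was at 714 and 666 TPM in 2D and at 284 and 274 TPM in 3D, and fell by 1.302 (adjusted p-value 0.000282 in limma). Fn1, which encodes fibronectin, fell by 1.13 (adjusted p-value 0.00234 in limma), S100a4 by 1.12 (adjusted p-value 0.000500 in limma) and Sparc by 0.86 (adjusted p-value 0.000317 in limma). The part of these factors and markers in the opposite changes of Cdh1 and Cdh2 was not tested.

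**Figure D4:**
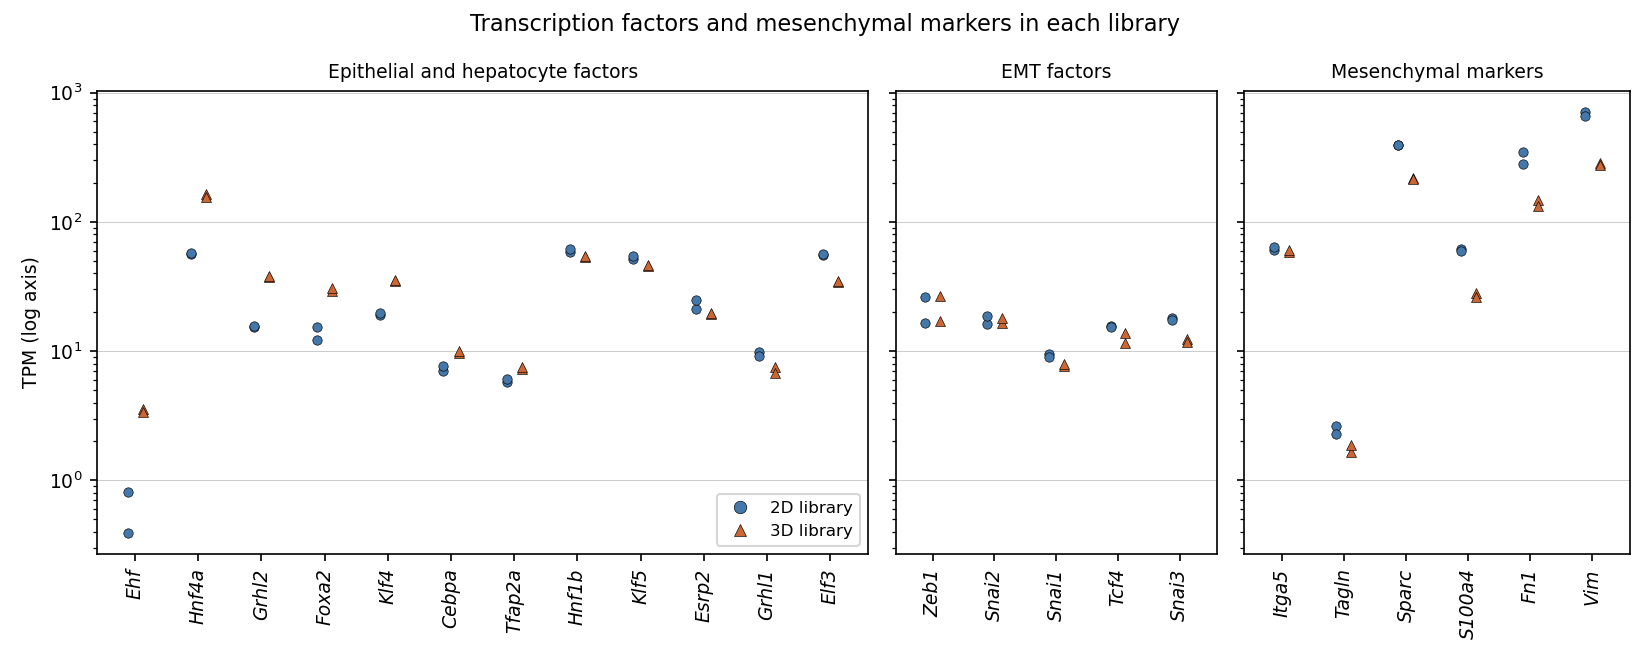
TPM on a log axis of tested transcription factors of epithelial and hepatocyte identity, the tested EMT factors and the tested mesenchymal markers in each library, with circles for 2D and triangles for 3D. Hnf4a, Grhl2, Foxa2 and Ehf lie higher in both 3D libraries, Zeb1 and Snai2 overlap between cultures, and Vim, Fn1, S100a4 and Sparc lie lower in both 3D libraries.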

How the data were processed

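RNA-seq was performed on AML12 cells, 2 libraries of 2D and 2 of 3D cultures, with a stranded kit for polyadenylated RNA. Per the labels and the study's methods, reads were trimmed (cutadapt 1.8.3, Trimmomatic 0.36) and aligned to GRCm38 (HISAT2 2.0.5), and StringTie 1.3.4 was used with the gene models of Ensembl release 93 to give TPM, which the authors deposited for each library. Since TPM values share a fixed total, genes that rise lower the others. The deposited log2 fold changes and p-values, from DESeq2, were not used.

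The test was that of limma 3.58.1 (R 4.3.3), with robust eBayes and a variance trend, two-sided, on log2(TPM + 1) of all genes whose mean over the 4 libraries reached 1 TPM, with culture as the only factor and Benjamini-Hochberg adjustment over all 14116 genes. Fold changes are on this scale and understate those of low genes. Genes with an adjusted p-value under 0.05 were called. An exact permutation test of 2 against 2 libraries cannot give a p-value under 0.333. Tables and figures were made with Python 3.11.15, pandas 2.3.3, numpy 2.4.6 and matplotlib 3.10.9.

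The junction genes and the lists of other genes were chosen with earlier results of these data known. All junction genes may be named. Of the other lists, genes called with a log2 fold change of at least 1 in size and the 3 genes with the highest mean TPM may be named, and of the cell type markers those that the check of the label rests on. Alternatives changed the pseudocount (0.1 or 5), the filter (none, or 5 TPM), the scaling (quantiles, medians, or TPM rescaled without abundant genes), the variance prior, the replicate block and the libraries used. Nearness of genes and overlaps were read from the positions in the table and GENCODE release M21, where 87 of the 91 junction genes have the same position. Results of some genes that enter the counts and sums are not reported here. Rnf128, Tbc1d8b, Elf3, Grhl1, Stab2 and Twist2 were named after their values were seen.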

Additional observations from a re-analysis of the deposited data

How the results depend on the processing

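The depth of the libraries is unknown, each culture has 2 libraries, and hydroxyurea time and culture cannot be told apart. Counts and fold changes of junction genes and counts of the partner lists were recomputed under 13 alternatives, in which a culture left with 1 library was assumed to vary like the other. For the partner lists, the alternatives other than the pseudocounts and no filter were chosen after seeing the data. The 23 called junction genes gave 297 values, of which none changed direction and 24 lost the call, among them values of Pkp4, Nectin1, Nectin2, Nectin4, Cdh13 and Cdh24. The cause was not tested.

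With no filter on low values the higher adherens junction genes numbered 4, with Cdh17 and Cdh4 added, the lower desmosome genes 1, and the median of the junction genes turned to 0.0104 over all 91 of them. In the partner lists 1 polarity gene and 1 epithelial factor were then lower, and 1 EMT factor was higher. There was also 1 lower polarity gene with a mean TPM of at least 5, after quantile normalization and with the replicate block. With a mean TPM of at least 5 there was 1 higher desmosome gene and 0 higher gap junction genes, since Dsg3 and Gjb1 were no longer tested. A constant prior variance gave 1 higher tight junction gene and 1 lower desmosome gene. Lower desmosome genes also numbered 1 when the 20 highest genes and the mitochondrial ones were left out and TPM rescaled. The replicate block gave the same number, 1 lower desmosome gene, through Pkp4, and changed no other call of a junction gene. Deviations of replicate 1 from the culture means correlated across genes with r = -0.05. Most genes differed little between replicates, so this cannot settle whether libraries of the same number belong together. The 10 genes that differed in the same replicate order in both cultures, Cldn2 among them, leave that open too.

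With any 1 library left out there were 1 to 3 higher tight junction genes, 3 to 6 lower adherens junction genes, 1 to 2 lower desmosome genes and a median of -0.2364 to -0.0714. In the partner lists there were 2 to 4 lower catenins and partners, 1 to 2 lower polarity genes, 0 to 3 higher and 3 to 5 lower scaffold genes, and 1 to 3 lower epithelial factors. Of the genes not called, Nectin3 was at -0.0016 after quantile normalization. With 1 library left out, the log2 fold change was between -0.1156 and 0.1362 for Nectin3, -0.3103 and 0.0122 for Pkp3, -0.2437 and 3.6014 for Cldn2, -0.3728 and 0.1477 for Cldn18, and -0.2024 and 0.2487 for Cgnl1.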
